A study of Mus musculus with 12 samples.

Results

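The genes of interleukin 6 (IL-6), tumor necrosis factor (TNF) and the proteins that receive or shed them were examined in BMDCs (bone marrow-derived dendritic cells) with or without conditional deletion of β2 integrins. These are Il6, Il6ra, Il6st, Tnf, Tnfrsf1a, Tnfrsf1b and Adam17, chosen by name, and they make up 7 of the 41709 genes in the count tables. Bone marrow cells were cultured with GM-CSF for 10 days, and MHCII+ cells were then isolated with magnetic beads and subjected to RNA-seq. CD18fl/fl BMDCs carried a floxed allele of Itgb2, the gene of the β2 integrin chain CD18, on both chromosomes and no Cre, and served as controls. CD18ΔCD11c BMDCs carried the same floxed alleles together with a Cre transgene driven by the promoter of CD11c, so that deletion depends on the activity of this promoter in the cultured cells. BMDCs of either genotype were left unstimulated or received 100 ng/mL lipopolysaccharide (LPS), a bacterial ligand of the receptor TLR4, for 24 h according to the labels. Each of the 4 groups comprised 3 libraries, numbered 1 to 3. Age and sex of the mice are not given in the sources used here, and it is not stated whether the libraries of a group came from separate mice or cultures. The p-values below therefore measure the spread between these libraries, which may be technical. In CD18ΔCD11c BMDCs it was not technical alone, as replicate 3 lacked Y-linked reads that replicates 1 and 2 had (given below).

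IL-6 and TNF are cytokines that dendritic cells and macrophages release when pattern recognition receptors such as TLR4 are engaged. IL-6 binds the IL-6 receptor α chain (Il6ra), and this complex signals through gp130 (Il6st) to JAK kinases and STAT3, in cells that carry the α chain or, with a soluble α chain, in cells that have gp130 alone. TNF is made as a membrane protein and binds TNF receptor 1 (Tnfrsf1a), which is found on most cells and carries a death domain, and TNF receptor 2 (Tnfrsf1b), which lacks one and is found mainly on immune and endothelial cells. The protease ADAM17 cleaves TNF, both TNF receptors and the IL-6 receptor α chain from the cell surface.

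The control regions of both cytokine genes are shown first, since Il6 differed most among the members between unstimulated and LPS-treated BMDCs, and Tnf between libraries of a group. All 7 genes were matched in RefSeq's table of promoters (mouse build GRCm38.p6), which gives 250 bases before and 50 bases after the start of transcription. Il6 lies on the forward strand (chr5:30012864-30013163) and Tnf on the reverse strand (chr17:35201958-35202257). Capitals mark matches, on either strand, of a κB-type motif (GGG and CC with any 5 bases between them), of the AP-1, C/EBP and TATA box motifs, or of part of the cAMP response element, whose letters are given with their frequency.
Il6 promoter: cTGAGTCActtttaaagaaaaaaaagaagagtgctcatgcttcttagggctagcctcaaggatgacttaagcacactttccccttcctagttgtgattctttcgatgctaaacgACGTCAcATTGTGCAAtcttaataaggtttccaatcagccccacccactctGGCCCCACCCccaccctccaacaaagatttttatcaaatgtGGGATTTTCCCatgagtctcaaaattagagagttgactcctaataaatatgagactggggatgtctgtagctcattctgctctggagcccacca
Tnf promoter: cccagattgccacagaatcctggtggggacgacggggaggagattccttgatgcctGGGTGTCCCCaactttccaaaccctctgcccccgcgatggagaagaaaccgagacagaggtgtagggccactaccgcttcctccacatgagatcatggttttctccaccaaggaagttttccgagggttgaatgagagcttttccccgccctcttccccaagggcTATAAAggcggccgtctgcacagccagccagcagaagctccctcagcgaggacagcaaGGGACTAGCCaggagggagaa
The Il6 window held matches of 4 of the 5 motifs. From the start outward, these were a pair of overlapping κB-type matches on opposite strands from -44 to -34, another κB-type match from -85 to -76, the C/EBP letters from -129 to -121, the core of the cAMP response element on the reverse strand from -136 to -131, and the AP-1 letters from -249 to -243. In the Tnf window, the κB-type motif matched on both strands from -194 to -185 and on the forward strand from 30 to 39, and the TATA box letters from -29 to -24. The receptor genes and Adam17 matched only the κB-type motif, which 50.8% of the 32851 promoters of this length also hold. The AP-1 motif was searched as TGANTCA and occurs in 7.81% of these promoters. For C/EBP the letters were TTGCNNAAT, held by 2.4% of all windows. The element core TGACGT was present in 7.51% of the promoters searched, and the TATA box letters TATAAA in 13.6%. Such matches describe letters and do not show binding.
Messenger RNAs of cytokines often carry AU-rich elements, built from the pentamer ATTTA (in DNA letters), through which proteins such as tristetraprolin (Zfp36) promote decay. The 3′ UTR of the canonical Tnf transcript (764 bases, GENCODE vM39, GRCm39) held 8 ATTTA matches and 5 matches of the longer TTATTTATT, and that of Il6 (427 bases) held 6 and 0. Of 20843 genes with a 3′ UTR, 67.4% held ATTTA and 8.33% TTATTTATT. The 30 bases richest in ATTTA (capitals) lie on chr17:35418655-35418684 (reverse strand) for Tnf and on chr5:30224675-30224704 (forward strand) for Il6.
Tnf 3′ UTR: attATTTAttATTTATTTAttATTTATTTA
Il6 3′ UTR: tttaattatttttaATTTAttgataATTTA

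Total gene reads per library, which are the deposited counts, ranged from 29689149 to 34037178. In CPM, that is, reads scaled to a common library size, 3 reads amounted to 0.0881 to 0.101. This floor covers counting error only, and markers were held against it in reads. The CPM of Itgb2 and of the markers below were also TMM-normalized, which scales libraries to a common composition. Itgb2 reads were lower but present in CD18ΔCD11c BMDCs, with 121, 163 and 189.5 CPM in replicates 1 to 3 against 382, 420.2 and 379 CPM in unstimulated CD18fl/fl BMDCs (log2 fold change -1.26 with a standard error, abbreviated SE, of 0.23, adjusted p (edgeR) = 0.0887, and 0.00392 when same-numbered libraries were compared). After LPS the values were 114, 89.7 and 119 CPM against 167, 171 and 266.5 CPM (-0.93, SE 0.29, adjusted p (edgeR) = 0.428, and 0.0201 in same-numbered libraries). These counts cover the whole gene and not the floxed exon alone. Libraries numbered 3 stood apart from 1 and 2 in each group. The summed level of 5 B cell genes was between 0.636 and 2.54 CPM in replicate 3 and between 8.64 and 138 CPM elsewhere, and all 5 markers were above the floor in 2 of the 4 libraries of replicate 3. The dendritic cell markers did not share a direction. Flt3 was at 0.227 to 2.25 CPM in replicate 3 and at 9.22 to 35.5 CPM in the others, and Ccr7 and H2-Ab1 were also lowest in replicate 3 of each group. Itgax, the gene of CD11c, was highest there, at 284 to 680 CPM against 30.8 to 210 CPM in the others. The remaining dendritic cell markers varied by group. All 8 dendritic cell and all 6 macrophage markers exceeded the floor in all 12 libraries, with sums of 10200 to 21300 and 786 to 1830 CPM. The 8 neutrophil markers summed to 1310 CPM in replicate 1 of unstimulated CD18fl/fl BMDCs, to 8.82 to 14.4 CPM in replicate 3, and to 42.3 to 193 CPM elsewhere. T cell, mast cell and basophil, NK cell and stromal cell markers reached at most 33.8, 117, 1.63 and 1.4 CPM in sum, and Col1a1, Col3a1 and Eomes had no library above 0.166 CPM. Of the mast cell and basophil markers, Cpa3 was at 15.5 to 115 CPM in replicate 3 and at most 5.94 CPM elsewhere. Kit went the other way, at 0.578 to 2.62 CPM in replicate 3 against 5.99 to 29.3 CPM. The remaining mast cell and basophil markers reached at most 1.74 CPM. Ddx3y, a Y-linked gene, had 0 reads in both CD18ΔCD11c libraries of replicate 3 and 1122 to 2502 reads in the other 10 libraries, so that the genotypes of replicate 3 also differed in Y-linked reads. The part of these differences in the results below was not tested, and results of the members are given with and without replicate 3. In such bulk samples, fewer cells of a type and less RNA per cell cannot be told apart.

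Levels of the 7 genes can be compared with each other only per length, as in the deposited TPM (reads per transcript length, scaled to each library). In unstimulated CD18fl/fl BMDCs, Tnfrsf1b had the highest mean (127 ± 76.8 TPM, SD, n = 3), followed by Tnfrsf1a (56.5 ± 11.3 TPM), Adam17 (27.5 ± 3.62 TPM), Tnf (21.0 ± 24.2 TPM), Il6st (18.0 ± 7.33 TPM), Il6 (4.10 ± 4.03 TPM) and Il6ra (2.45 ± 1.47 TPM). The libraries of neighbors in this order overlapped, except for Tnfrsf1a above Adam17 and Il6st above Il6. In unstimulated CD18ΔCD11c BMDCs the order was the same but for Tnf (13.6 ± 15.6 TPM, SD, n = 3) and Adam17 (12.8 ± 3.01 TPM), which overlapped. After LPS, Il6 stood first in both genotypes, with 238 ± 37.7 TPM (SD, n = 3) in CD18fl/fl and 306 ± 149.5 TPM (SD, n = 3) in CD18ΔCD11c BMDCs. It overlapped with Tnfrsf1b (213 ± 61.9 TPM, SD, n = 3) in CD18fl/fl BMDCs, and lay above Tnfrsf1b (93.7 ± 16.4 TPM, SD, n = 3) in CD18ΔCD11c BMDCs without overlap. Il6ra was last in all 4 groups and reached 0.0952 ± 0.0240 TPM (SD, n = 3) in LPS-treated CD18ΔCD11c BMDCs.

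To assess the response to LPS, reads of LPS-treated BMDCs were compared with those of unstimulated BMDCs within each genotype. Values are given as CPM after TMM normalization, which scales libraries to a common composition, and log2 fold changes from edgeR's quasi-likelihood test, with p-values adjusted over the whole set of tested genes (Benjamini-Hochberg). A second fit of each comparison included the replicate number as an additive term, called the block here, so that same-numbered libraries were compared. Without the block, Il6 alone passed an adjusted p of 0.05 among the members, as higher after LPS in both genotypes, where 2.06% of 12744 genes (CD18fl/fl) and 2.23% of 12687 genes (CD18ΔCD11c) were called higher. With the block, 2 members were called higher (Il6 and Tnf) and 1 lower (Il6ra) in CD18fl/fl BMDCs, against 6.33% and 6.43% of all genes. In CD18ΔCD11c BMDCs, 3 members were called higher (Il6, Tnf and Tnfrsf1b) and 1 lower (Il6ra), against 10.2% and 9.93%. The libraries of 2 members did not overlap toward higher and of 2 toward lower values in CD18fl/fl BMDCs (13.6% and 15.9% of all genes), and of 2 and 1 in CD18ΔCD11c BMDCs (14.8% and 13.4%). Replicates 1 and 2 alone, fitted without the block here and below, called 6 and 3 members, against 47.5% and 15.9% of genes. DESeq2 called 2 members in each genotype (12.8% and 10.7% of genes), the block with a length offset 3 and 4 (14.1% and 20.2%), and the block with library size scaling 3 and 5 (12.7% and 21.7%). In CD18fl/fl BMDCs, DESeq2 gave no adjusted p for Tnf, so that 6 members were tested there.

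Il6 (ENSMUSG00000025746) spans bases 30218112 to 30224979 of chromosome 5, forward strand, in GRCm39, the build the coordinates of the tables match. Unstimulated CD18fl/fl BMDCs contained 2.25, 2.08 and 11.2 CPM in replicates 1 to 3, and 302, 366 and 360 CPM after LPS. In CD18ΔCD11c BMDCs the values were 6.58, 5.74 and 6.36 CPM without and 389, 489.5 and 815 CPM with LPS. All 6 LPS-treated libraries thus lay far above all unstimulated ones, and the single unstimulated library that stood out was replicate 3 of CD18fl/fl BMDCs. The log2 fold change was 6.06 (SE 0.80, adjusted p = 0.0162 in edgeR) in CD18fl/fl and 6.47 (SE 0.42, adjusted p = 0.00885 in edgeR) in CD18ΔCD11c BMDCs, which is 66.7-fold and 88.7-fold. With the block it was 6.52 (SE 0.60, adjusted p = 0.005 in edgeR) and 6.39 (SE 0.31, adjusted p = 0.000587 in edgeR). The rise was seen in 3 of 3 same-numbered pairs of either genotype, from 32.2-fold to 176-fold. The adjusted p in CD18fl/fl BMDCs was between 0.069 and 0.101 without replicate 1 or 2 of either state, and that in CD18ΔCD11c BMDCs was 0.0557 without replicate 1 of the unstimulated group, at log2 fold changes between 5.68 and 6.49. From replicates 1 and 2 alone, the log2 fold changes were 7.27 and 6.05 (adjusted p (edgeR) = 1.22e-08 and 0.000474).
The noncoding gene Gm42450 overlaps Il6 on the opposite strand, and strand was not stated to be used in counting. It was assigned between 0 and 44 reads in unstimulated and between 94 and 957 reads in LPS-treated libraries, against 81 to 418 and 9400 to 25187 reads for Il6. Reads of the pair cannot be told apart by strand. Of the Il6 reads of LPS-treated libraries, between 5.11% (exact 95% confidence interval 4.68% to 5.57%) and 10.5% (10.0% to 11.0%) fell on introns.

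Tnf (ENSMUSG00000024401, chromosome 17, 35418357 to 35420983, reverse strand) showed a different pattern, in which the replicate number weighed more than LPS. In CD18fl/fl BMDCs it was found at 5.94, 4.72 and 37.8 CPM without and at 20.3, 14.0 and 185 CPM with LPS. CD18ΔCD11c BMDCs had 6.05, 4.04 and 31.3 CPM without and 15.6, 18.1 and 87.4 CPM with LPS. Replicate 3 was the highest library in each of the 4 groups, and unstimulated replicate 3 exceeded LPS-treated replicates 1 and 2 in both genotypes. Between same-numbered libraries, LPS-treated BMDCs contained 3.42-, 2.97- and 4.91-fold more Tnf reads in CD18fl/fl and 2.58-, 4.47- and 2.80-fold more in CD18ΔCD11c BMDCs. Accordingly, the log2 fold change was 2.20 (SE 1.21, adjusted p = 0.317 in edgeR) and 1.54 (SE 0.97, adjusted p = 0.416 in edgeR) without the block. It was 1.89 (SE 0.25, adjusted p = 0.0093 in edgeR) and 1.62 (SE 0.22, adjusted p = 0.00456 in edgeR) with the block. Replicates 1 and 2 alone gave 1.69 and 1.64 (adjusted p (edgeR) = 0.000288 and 0.0223). Without the block, the value in CD18fl/fl BMDCs dropped to 0.10 when LPS-treated replicate 3 was left out, and rose to 3.79 without its unstimulated counterpart. The plot of both ligand genes shows this contrast.

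**Figure D1:**
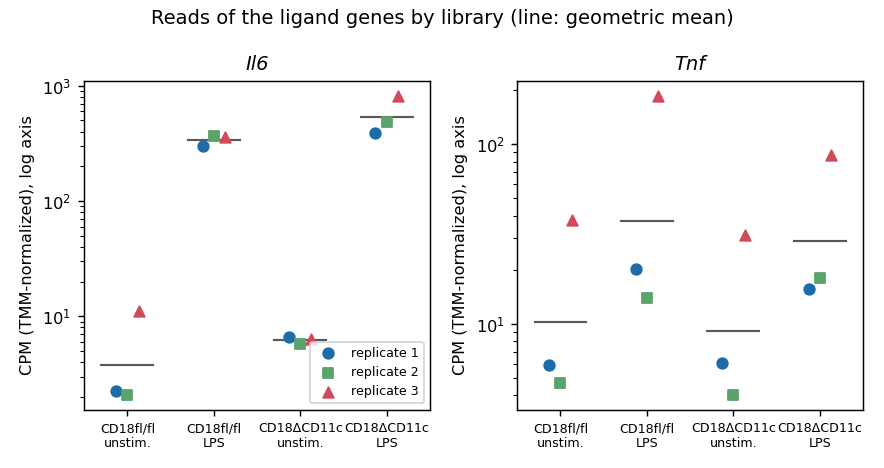
TMM-normalized CPM (log axis) of Il6 (left) and Tnf (right) in each of the 12 libraries, by group, with marker shape and color giving the replicate number and lines the geometric mean of 3 libraries. Il6 separates LPS-treated from unstimulated libraries in both genotypes, whereas Tnf is highest in replicate 3 of every group (31.3 to 185 CPM).

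Lta, the gene of lymphotoxin α next to Tnf on the chromosome, was looked at after its values were seen. It had 83, 566, 89 and 386 reads in the 4 libraries of replicate 3 and between 5 and 55 reads in the other 8 libraries. Replicate 3 was thus the highest library of each group for this gene as well.

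Il6ra (ENSMUSG00000027947, chromosome 3, 89771366 to 89820503, reverse strand), which encodes the ligand-binding α chain, was lower after LPS. CD18fl/fl BMDCs contained 15.2, 9.78 and 3.63 CPM without and 1.99, 1.41 and 1.70 CPM with LPS, and CD18ΔCD11c BMDCs 9.01, 9.07 and 1.97 CPM without and 0.77, 0.943 and 0.388 CPM with LPS. The lowest of these rest on few reads, between 12 and 21 in LPS-treated CD18ΔCD11c BMDCs. In both genotypes, each LPS-treated library lay below each unstimulated one. The log2 fold change was -2.48 (SE 0.56, adjusted p = 0.0605 in edgeR) in CD18fl/fl and -3.31 (SE 0.71, adjusted p = 0.0501 in edgeR) in CD18ΔCD11c BMDCs. With the block, the values were -2.28 (SE 0.47, adjusted p = 0.0326 in edgeR) and -3.12 (SE 0.47, adjusted p = 0.00648 in edgeR). In replicates 1 and 2 alone Il6ra gave -2.87 and -3.5 (adjusted p (edgeR) = 3.94e-05 and 0.00593).
Il6st (ENSMUSG00000021756, chromosome 13, 112600604 to 112646620, forward strand) encodes gp130, which the receptors of several cytokines share. It was at 94.4, 123 and 53.3 CPM in unstimulated and at 50.8, 51.7 and 40.6 CPM in LPS-treated CD18fl/fl BMDCs, and at 58.8, 50.9 and 32.8 CPM and 42.3, 44.7 and 25.2 CPM in the respective CD18ΔCD11c BMDCs. All 3 pairs of either genotype were lower after LPS, and the groups overlapped in CD18ΔCD11c BMDCs alone. In edgeR the log2 fold change was -0.91 (SE 0.34, adjusted p = 0.165 in edgeR) and -0.40 (SE 0.31, adjusted p = 0.521 in edgeR), with adjusted p of 0.0772 and 0.158 in edgeR with the block. CD18fl/fl BMDCs gave -1.08 in replicates 1 and 2 alone (adjusted p (edgeR) = 0.000375), and CD18ΔCD11c BMDCs -0.44 (adjusted p (edgeR) = 0.191).

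For TNF receptor 2, Tnfrsf1b (ENSMUSG00000028599, chromosome 4, 144940033 to 144973440, reverse strand), unstimulated CD18fl/fl BMDCs showed 234, 337 and 84.3 CPM and LPS-treated ones 396, 417 and 524 CPM. The values in CD18ΔCD11c BMDCs were 85.1, 174.5 and 48.6 CPM without and 219, 314.5 and 268 CPM with LPS. Each LPS-treated library was above each unstimulated library of its genotype, and replicate 3 was the lowest without LPS in both genotypes. The difference was largest in the pair of replicate 3, with 6.22-fold and 5.51-fold, against 1.69- and 1.24-fold in replicates 1 and 2 of CD18fl/fl and 2.57- and 1.80-fold in those of CD18ΔCD11c BMDCs. This amounted to log2 fold changes of 1.03 (SE 0.49, adjusted p = 0.247 in edgeR) and 1.33 (SE 0.47, adjusted p = 0.161 in edgeR). With the block it was 1.21 (SE 0.48, adjusted p = 0.141 in edgeR) in CD18fl/fl BMDCs, and in CD18ΔCD11c BMDCs 1.5 (SE 0.33, adjusted p = 0.0224 in edgeR). Without replicate 3 and without the block, the values were 0.51 (adjusted p (edgeR) = 0.0492) and 0.93 (adjusted p (edgeR) = 0.14). In CD18ΔCD11c BMDCs, Tnfrsf1b was thus not called without the block, with or without replicate 3.
Tnfrsf1a (ENSMUSG00000030341, chromosome 6, 125326325 to 125339447, forward strand), the gene of TNF receptor 1, was at 62.4, 72.4 and 50.6 CPM without and 63.2, 67.5 and 41.2 CPM with LPS in CD18fl/fl BMDCs. It was at 34.9, 36.5 and 29.1 CPM without and 28.4, 39.0 and 22.1 CPM with LPS in CD18ΔCD11c BMDCs. Unstimulated and LPS-treated libraries overlapped in both genotypes. Its log2 fold change of -0.10 (SE 0.28) and -0.22 (SE 0.27) had an adjusted p (edgeR) of 0.851 and 0.69, and was -0.05 and -0.19 without replicate 3 (adjusted p (edgeR) = 0.837 and 0.64). Adam17 (ENSMUSG00000052593, chromosome 12, 21373510 to 21423633, reverse strand) was at 50.9, 62.7 and 60.0 CPM without and 35.0, 28.6 and 74.9 CPM with LPS in CD18fl/fl BMDCs, and at 28.8, 44.4 and 40.1 CPM without and 20.1, 32.5 and 41.1 CPM with LPS in CD18ΔCD11c BMDCs. Its replicates 1 and 2 were lower after LPS and its replicate 3 was 1.25-fold and 1.02-fold higher in CD18fl/fl and CD18ΔCD11c BMDCs. For Adam17, edgeR gave -0.32 (SE 0.39, adjusted p = 0.655 in edgeR) and -0.31 (SE 0.35, adjusted p = 0.663 in edgeR). CD18fl/fl BMDCs gave -0.84 in replicates 1 and 2 alone (adjusted p (edgeR) = 0.00285), and CD18ΔCD11c BMDCs -0.59 (adjusted p (edgeR) = 0.274). The end of Adam17 overlaps Iah1 on the opposite strand, which held 437 to 1345 reads.

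**Figure D2:**
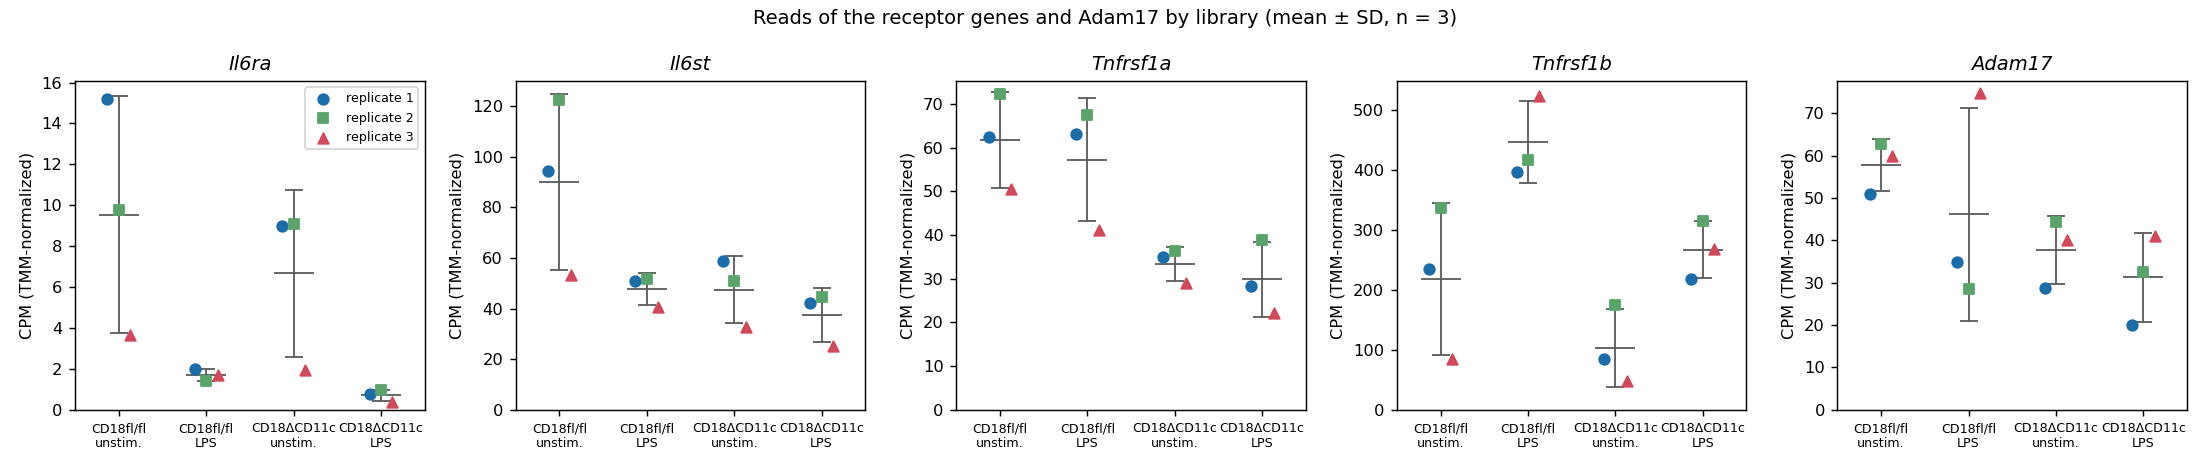
TMM-normalized CPM of the receptor genes and Adam17 in each of the 12 libraries, by group, with marker shape and color giving the replicate number and bars the mean ± SD of 3 libraries (axes start at 0). Il6ra is lower and Tnfrsf1b higher after LPS in both genotypes without overlap, and Tnfrsf1a is lower in CD18ΔCD11c than in CD18fl/fl BMDCs in either state.

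Since scaling between libraries cancels in a ratio of TPM within a library, 3 such ratios were examined in 12 comparisons. The ratio of Tnfrsf1b to Tnfrsf1a was 2.38, 2.96 and 1.06 in CD18fl/fl BMDCs without LPS and 3.96, 3.90 and 8.20 with it. In CD18ΔCD11c BMDCs it was 1.55, 3.07 and 1.07 without and 4.83, 5.13 and 7.78 with LPS. Unstimulated and LPS-treated libraries did not overlap, with log2 differences of 1.36 and 1.75 between the means. For the ratio of gp130 to the α chain (Il6st to Il6ra), the values were 4.77, 9.66 and 11.6 without and 21.4, 28.2 and 19.8 with LPS in CD18fl/fl BMDCs, and 5.05, 4.21 and 12.9 without and 47.9, 44.8 and 49.6 with LPS in CD18ΔCD11c BMDCs. The LPS-treated libraries of both genotypes were above the unstimulated ones, and those of CD18ΔCD11c BMDCs above those of CD18fl/fl BMDCs, with a log2 difference of 1.05 between the genotypes. The ratios in LPS-treated CD18ΔCD11c BMDCs rest on only 19, 21 and 12 Il6ra reads. The ratio of Il6 to Tnf was between 0.125 and 0.976 in the 6 unstimulated and between 1.18 and 17.2 in the 6 LPS-treated libraries, and was lowest in replicate 3 of each group. All 7 comparisons without overlap had a p of 0.1 in the exact permutation test (two-sided), the smallest that 3 against 3 libraries allow, and 0.171 after Benjamini-Hochberg adjustment over the 12 comparisons.

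**Figure D3:**
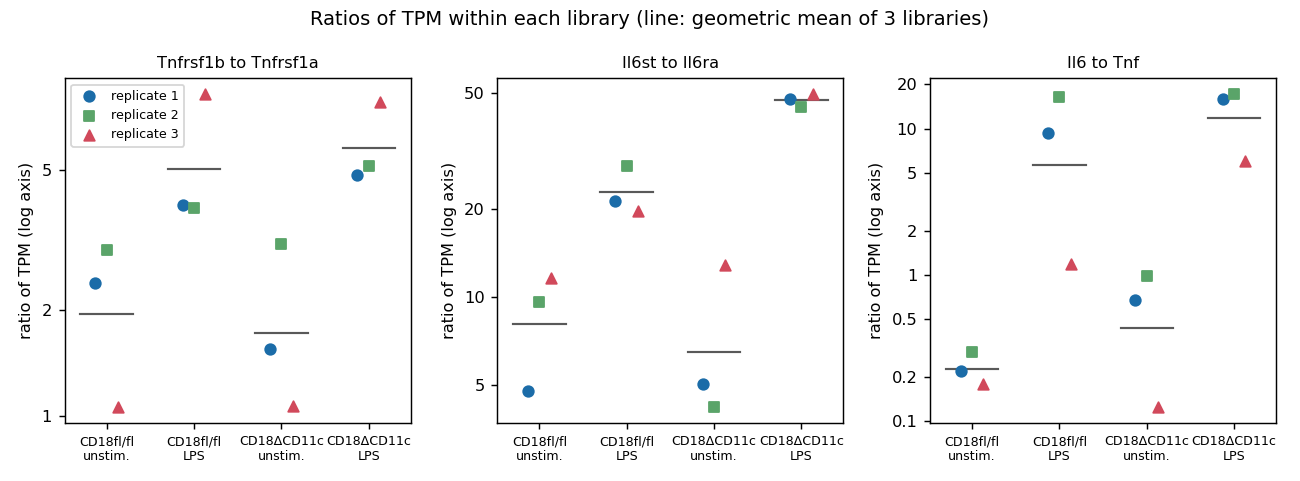
Ratio of TPM of Tnfrsf1b to Tnfrsf1a, Il6st to Il6ra and Il6 to Tnf (log axes) within each of the 12 libraries, by group, with lines giving the geometric mean of 3 libraries. Each ratio is higher in all LPS-treated than in all unstimulated libraries of a genotype, and the ratio of Il6st to Il6ra is higher in LPS-treated CD18ΔCD11c (44.8 to 49.6) than CD18fl/fl BMDCs (19.8 to 28.2). In LPS-treated CD18ΔCD11c BMDCs this ratio rests on 12 to 21 Il6ra reads.

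The influence of CD18 deletion was assessed by comparing CD18ΔCD11c with CD18fl/fl BMDCs in each state. Without the block, none of the 7 members and 0.0% of all genes tested by edgeR reached an adjusted p of 0.05 in either state, while 1395 genes were higher and 764 lower in unstimulated and 770 higher and 442 lower in LPS-treated CD18ΔCD11c BMDCs at an unadjusted p under 0.05. DESeq2 called 6.03% and 1.3% of genes, with no member among them. After LPS it gave no adjusted p for Tnf, so that 6 members were tested there. With the block, 4 members were lower in unstimulated CD18ΔCD11c BMDCs (Tnfrsf1a, Tnfrsf1b, Il6st and Adam17, against 8.16% of genes called lower), and 2 after LPS (Tnfrsf1a and Tnfrsf1b, against 3.16%). No member was called higher, where 12.1% and 6.98% of all genes were. All 3 same-numbered pairs were lower for 5 members in unstimulated BMDCs (33.9% of all genes) and for 4 after LPS (26.1%). Replicates 1 and 2 alone called 3 members in unstimulated and 1 in LPS-treated BMDCs (10.6% and 4.22% of genes), and the block with library size scaling 5 and 3 (35.6% and 21.2%). In unstimulated BMDCs, 6 of 7 members had a negative log2 fold change, with a median of -0.57 against -0.07 for all genes in the fit with the block. After LPS the number was also 6, with a median of -0.52 against -0.09. Scaling to library size alone gave medians of all genes of -0.44 and -0.37 for the genotype in the unstimulated and LPS-treated state, against -0.05 and -0.11 with TMM, and differences are given relative to TMM. Log2 fold changes of the genotype also decreased with exon length (Spearman's rho across genes -0.38 and -0.27 with the block), and an offset for exon length was therefore added to the block, which left 2 members called in each state (12% and 7.14% of genes). The exon lengths of the members were 1639 bases for Tnf, 2428 for Il6, 2432 for Tnfrsf1a, 3818 for Tnfrsf1b, 4649 for Adam17, 8642 for Il6ra and 11099 for Il6st, against a median of 3248 over all genes tested in unstimulated BMDCs.

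Tnfrsf1a was lower in CD18ΔCD11c BMDCs in each library and state (values above). Both states showed a gap between the genotypes, with at most 36.5 CPM in unstimulated CD18ΔCD11c libraries against at least 50.6 CPM in CD18fl/fl libraries, and at most 39.0 against at least 41.2 CPM after LPS. Such a gap toward lower values was found for 2 members (Tnfrsf1a and Adam17) in unstimulated BMDCs, against 13.1% of all genes. After LPS it was found for 3 (Tnfrsf1a, Tnfrsf1b and Il6ra), against 8.09%. Toward higher values it was found for Il6, against 9.51%, in TMM-normalized CPM but not in CPM scaled to library size alone. The log2 fold change of Tnfrsf1a was -0.83 (SE 0.22, adjusted p = 0.156 in edgeR) in unstimulated and -0.97 (SE 0.30, adjusted p = 0.428 in edgeR) in LPS-treated BMDCs. With the block it fell by 0.82 (SE 0.14, adjusted p = 0.00872 in edgeR) and by 0.97 (SE 0.16, adjusted p = 0.0139 in edgeR), and with the length offset in addition by 0.91 (adjusted p (edgeR) = 0.0107) and 0.96 (adjusted p (edgeR) = 0.0176). Without replicate 3 it gave -0.86 and -0.99 (adjusted p (edgeR) = 0.0331 and 0.0464).
Tnfrsf1b was lower in CD18ΔCD11c BMDCs in all same-numbered pairs, 2.75-, 1.93- and 1.74-fold without and 1.81-, 1.33- and 1.96-fold with LPS. The genotypes overlapped in unstimulated BMDCs, where replicates differed most, and did not after LPS. Across libraries, Tnfrsf1b gave log2 fold changes of -1.04 (SE 0.62, adjusted p = 0.44 in edgeR) and -0.77 (SE 0.26, adjusted p = 0.445 in edgeR). With the block it fell by 1.01 (SE 0.17, adjusted p = 0.00877 in edgeR) and by 0.77 (SE 0.16, adjusted p = 0.0271 in edgeR), and with the length offset in addition by 0.88 (adjusted p (edgeR) = 0.0188) and 0.63 (adjusted p (edgeR) = 0.0499). Without replicate 3 the values were -1.08 and -0.64 (adjusted p (edgeR) = 0.0928 and 0.129). The ratio of Tnfrsf1b to Tnfrsf1a overlapped between the genotypes in both states (exact permutation test, two-sided, p = 1.0 and 0.6).

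Il6st was lower in all 3 pairs of unstimulated CD18ΔCD11c BMDCs, with overlap between the groups. Its log2 fold change was -0.88 (SE 0.37, adjusted p = 0.298 in edgeR), and -0.83 with the block (SE 0.17, adjusted p = 0.0159 in edgeR). With the length offset in addition it was -0.49 (adjusted p (edgeR) = 0.0911), and in replicates 1 and 2 alone -0.93 (adjusted p (edgeR) = 0.0362). After LPS it was -0.38 (SE 0.27, adjusted p = 0.713 in edgeR, and 0.151 with the block), and -0.27 without replicate 3 (adjusted p (edgeR) = 0.439). Adam17 had a log2 fold change of -0.56 (SE 0.22, adjusted p = 0.282 in edgeR) in unstimulated BMDCs. The value with the block was -0.57 (SE 0.15, adjusted p = 0.0322 in edgeR), and with the length offset in addition -0.39 (adjusted p (edgeR) = 0.118). Replicates 1 and 2 alone, fitted without the block, gave the same -0.57 with an adjusted p of 0.175 in edgeR. Adam17 was thus not called without the block, with or without replicate 3. In LPS-treated BMDCs, replicates 1 and 3 of Adam17 were lower and replicate 2 higher in CD18ΔCD11c cells, and the log2 fold change was -0.59 (SE 0.45, adjusted p = 0.729 in edgeR), and -0.31 without replicate 3 (adjusted p (edgeR) = 0.54).
Il6ra had a log2 fold change of -0.47 (SE 0.71, adjusted p = 0.777 in edgeR) in unstimulated and -1.31 (SE 0.61, adjusted p = 0.559 in edgeR) in LPS-treated BMDCs, and of -0.52 and -1.38 with the block (adjusted p (edgeR) = 0.177 and 0.247). Without replicate 3 it had -0.40 and -1.02 (adjusted p (edgeR) = 0.383 and 0.444). The block with the length offset gave -0.2 and -1.2 for Il6ra (adjusted p (edgeR) = 0.649 and 0.337). The LPS-treated libraries did not overlap, at 12 to 21 reads in CD18ΔCD11c against 38 to 67 reads in CD18fl/fl BMDCs.

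Il6 was the only member with a positive log2 fold change between the genotypes in both states, after TMM normalization. After LPS, all 3 CD18ΔCD11c libraries exceeded all CD18fl/fl libraries in TMM-normalized CPM, by 1.29-, 1.34- and 2.27-fold in same-numbered pairs. With CPM scaled to library size alone the genotypes overlapped, at 307.5 to 764.7 in CD18ΔCD11c against 292.7 to 416 CPM in CD18fl/fl BMDCs. They also overlapped in TPM (202.7 to 477.8 against 209.5 to 280.7), where replicate 1 was lower in CD18ΔCD11c BMDCs. The log2 fold change was 0.70 (SE 0.34, adjusted p = 0.572 in edgeR), and 0.63 with the block (SE 0.19, adjusted p = 0.0834 in edgeR). Without replicate 3 of CD18ΔCD11c BMDCs it was 0.31, and 0.36 from replicates 1 and 2 alone (adjusted p (edgeR) = 0.344). DESeq2 with the block, which called 17.1% of genes, gave 0.66 (adjusted p = 0.00758), so that the call depends on the tool. The block with the length offset gave 0.64 (adjusted p (edgeR) = 0.0887). In unstimulated BMDCs, Il6 was 2.93- and 2.76-fold higher in replicates 1 and 2 and 1.76-fold lower in replicate 3 of CD18ΔCD11c cells, and the log2 fold change was 0.35 (SE 0.66, adjusted p = 0.834 in edgeR). Il6 gave 1.57 in replicates 1 and 2 alone (adjusted p (edgeR) = 0.0396). In TPM, its unstimulated mean was lower in CD18ΔCD11c (3.795 ± 0.162, SD, n = 3) than in CD18fl/fl BMDCs (4.10 ± 4.03, SD, n = 3).
Tnf was 1.02-, 0.856- and 0.827-fold as high in unstimulated CD18ΔCD11c as in CD18fl/fl BMDCs, and 0.771-, 1.29- and 0.471-fold as high after LPS. Tnf thus had log2 fold changes of -0.15 (SE 1.03, adjusted p = 0.961 in edgeR) and -0.88 (SE 1.12, adjusted p = 0.849 in edgeR), and -0.10 and -0.41 with the block (adjusted p (edgeR) = 0.71 and 0.364). The latter pair had SEs of 0.17 and 0.26. With the length offset in addition, Tnf gave -0.42 and -0.58 (adjusted p (edgeR) = 0.148 and 0.25). In replicates 1 and 2 alone Tnf gave -0.02 and -0.06 (adjusted p (edgeR) = 0.977 and 0.916). After LPS the value without the block turned to 1.23 when replicate 3 of CD18fl/fl BMDCs was left out.

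**Figure D4:**
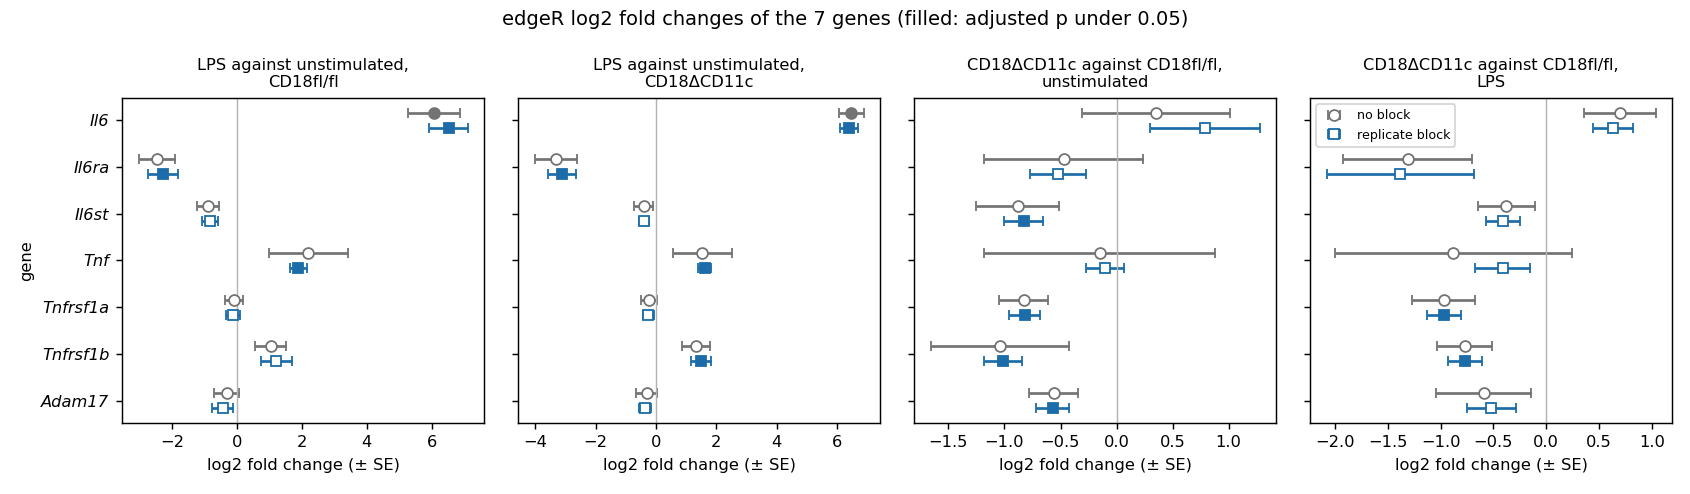
Log2 fold changes (± SE) of the 7 genes in edgeR for LPS against no stimulation in each genotype and for CD18ΔCD11c against CD18fl/fl BMDCs in each state, without (gray circles) and with (blue squares) the replicate block, filled where the adjusted p was under 0.05. Without the block only Il6 is called, and only for LPS, and with it Tnfrsf1a and Tnfrsf1b are called lower in CD18ΔCD11c BMDCs in both states.

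In a test of whether the LPS response differed between the genotypes, the adjusted p was 1.0 for each of the 7 members with and without the block, as 0.0% of the 13752 genes tested were called. At an unadjusted p under 0.05, edgeR gave 48 genes with a higher and 49 with a lower response without the block, and DESeq2 called 1 gene (0.00488%) after adjustment. The interaction was 0.45 (SE 0.78) for Il6, -0.77 (SE 0.89) for Il6ra, 0.57 (SE 0.48) for Il6st and -0.63 (SE 1.67) for Tnf on the log2 scale. It was -0.06 (SE 0.38) for Tnfrsf1a, 0.35 (SE 0.71) for Tnfrsf1b and 0.05 (SE 0.52) for Adam17. With the block the SEs were between 0.23 and 0.64.

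Other genes of both pathways were taken from 7 lists with 75 genes, of which 68 passed the filter on low counts in all comparisons but that of LPS-treated BMDCs (67). In response to LPS, 4 were called higher and 1 lower in CD18fl/fl BMDCs, against 2.06% and 1.83% of all genes, and 4 higher and 1 lower in CD18ΔCD11c BMDCs, against 2.23% and 1.76%. Ltb, which encodes lymphotoxin β and neighbors Tnf, fell by 3.32 (SE 0.43, adjusted p = 0.0162 in edgeR) in CD18fl/fl and by 2.96 (SE 0.35, adjusted p = 0.0146 in edgeR) in CD18ΔCD11c BMDCs on the log2 scale. Cflar, the gene of the caspase-8 inhibitor c-FLIP, rose by 2.28 and 2.15 (adjusted p (edgeR) = 0.0162 and 0.0217). Rnf31, whose product is the catalytic subunit of the linear ubiquitin ligase at TNF receptor 1, rose by 1.45 and 1.24 (adjusted p (edgeR) = 0.0222 and 0.045). Ebi3, which pairs with p28 to form the gp130 ligand IL-27, rose by 2.22 and 1.77 (adjusted p (edgeR) = 0.0138 and 0.0363). Mlkl, the effector of necroptosis, passed the test in CD18fl/fl BMDCs (2.71, adjusted p (edgeR) = 0.0162) and had 2.21 in CD18ΔCD11c BMDCs (adjusted p (edgeR) = 0.0654). The difference between the genotypes was not significant for any of these genes (interaction adjusted p = 1.0 in edgeR). With the block, 12 genes of the lists were called higher and 4 lower in CD18fl/fl BMDCs (6.33% and 6.43% of all genes), and 18 and 4 in CD18ΔCD11c BMDCs (10.2% and 9.93%), including Lifr (-4.14 and -3.28), which encodes a partner of gp130. LPS-treated libraries held only 2 to 33 Lifr reads.
By list, LPS called 1 of 8 gp130 ligands and receptors, 0 of 12 genes of IL-6 signal transduction, 1 of 3 neighbors of Tnf and their receptor, 3 of 26 genes of TNF receptor signal transduction, and 0 of 4 ADAM17 partners and related protease, 0 of 6 regulators of transcription and 0 of 9 of mRNA stability in CD18fl/fl BMDCs. In CD18ΔCD11c BMDCs the numbers were 1, 1, 1, 2, 0, 0 and 0. Of all genes tested, 3.89% and 3.99% were called in these comparisons.

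Between the genotypes, none of these genes passed the test without the block. The largest differences in unstimulated BMDCs were those of Il27, the p28 subunit of IL-27 (-2.38, adjusted p (edgeR) = 0.225), Cebpd (-1.04, adjusted p = 0.14) and Cebpb (-0.94, adjusted p = 0.454), which encode C/EBP factors, and Zfp36 (-0.95, adjusted p = 0.243). Il27 rested on 3 to 14 reads in the 3 CD18ΔCD11c libraries. With the block, 16 genes of the lists were lower and 4 higher in unstimulated CD18ΔCD11c BMDCs, against 8.16% and 12.1% of all genes. Of the 68 list genes tested, 52 had a negative log2 fold change with the block. Among the 9 genes that regulate the stability of Il6 and Tnf mRNA, all 9 did (median -0.59 against -0.07 for all genes). Their values ran from -0.07 (Elavl1) to -0.90 (Zfp36), and 4 were called lower. They include Zfp36, the gene of tristetraprolin (-0.90, adjusted p (edgeR) = 0.00901), at 315, 425 and 192 CPM in CD18fl/fl and 155, 190 and 121 CPM in CD18ΔCD11c BMDCs. Values of the list genes are given without the length offset, which lowered the members called in this state from 4 to 2.
Of 6 regulators of transcription, 3 were called lower with the block, including Cebpb (-1.10, adjusted p (edgeR) = 0.0187) and Cebpd (-1.02, adjusted p (edgeR) = 0.0162), and of 12 genes of IL-6 signal transduction 3 were called lower and 1 higher. Of 26 genes of TNF receptor signal transduction, 4 were called lower and 2 higher, and of the remaining lists the gp130 ligands and receptors and the ADAM17 partners had 1 lower gene each, and the neighbors of Tnf 1 higher gene. After LPS, 5 genes were lower and 0 higher with the block, against 3.16% and 6.98% of all genes. The largest differences were those of Ltb (1.06, adjusted p (edgeR) = 0.531), Lifr (1.02, adjusted p = 0.823), Lif (-0.97, adjusted p = 0.67) and Timp3 (0.87, adjusted p = 0.889) without the block. Of these, Lifr rested on 2 to 33 reads and Timp3 on 1 to 66 reads in LPS-treated libraries. Lif, a further gp130 ligand, had -1.0 with the block (adjusted p (edgeR) = 0.0109), as had Zfp36 -0.76 (adjusted p (edgeR) = 0.0198).

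Across the 12 libraries and 13752 genes, the profile of Il6 (log2 CPM) was most like those of Slc31a2 (Pearson's r = 0.982), Tnfsf15, Casp4, Ppm1n and Prdx5 (0.979 to 0.98), and that of Tnf like those of Fyco1 (0.98), Olr1, Ccnd2, Hdc and Socs1 (0.963 to 0.976). For Il6ra they were Pdk3, Dap and Lima1 (0.95 to 0.966), for Il6st Usp38, Mef2a and S1pr1 (0.935 to 0.971), and for Tnfrsf1a G6pdx, Rbm38 and Cnot2 (0.931 to 0.943). Tnfrsf1b was most like Crtc2, Gm5431 and Nfkb2 (0.952 to 0.984) and Adam17 like Plbd2, Itpripl2 and Bmpr2 (0.95 to 0.959). Among the members themselves, the closest profiles were those of Il6ra and Il6st (r = 0.80) and the most opposed those of Il6 and Il6ra (r = -0.90). These correlations describe libraries that share LPS, genotype and replicate number.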

How the data were processed

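The authors isolated MHCII+ BMDCs, prepared poly(A)-selected libraries (whether strand was kept is not stated), sequenced single-end reads on a HiSeq instrument, and mapped and counted them with CLC Genomics Workbench at default settings, against GRCm39 according to the study's methods (the labels name GRCm38). In the tables, the start or end of 70.7% of 41182 genes was identical to GENCODE vM39 (GRCm39). The study's methods describe overnight LPS, and the labels 24 h. The authors deposited raw counts per gene and library (total, unique, intron and junction reads) and TPM, that is, reads per length scaled to each library. Total gene reads were used, of which 95.1% to 96.2% were unique. No library was a copy of another (66 pairs, lowest chi-squared per degree of freedom 36.1).

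Counts were tested with edgeR 4.0.16 in R 4.3.3 (filterByExpr with minimum count 10, TMM, quasi-likelihood test, Benjamini-Hochberg, threshold 0.05) on the 6 libraries of a comparison, and on 12 for the interaction. The standard error was the size of the log2 fold change divided by the square root of F. CPM and log2 CPM (prior count 2) were scaled over all 12 libraries. Single values were compared by exact permutation (scipy 1.17.1). Replicate numbers come from the labels, which do not say what same-numbered libraries share. Their deviations from the group means correlated between 0.265 and 0.716 in every same-numbered pair, and by the rule set for this (every pair over 0.1) the numbers were taken to pair the libraries. Libraries 1 and 2 also correlated with each other across groups (0.154 to 0.334), and both correlated negatively with libraries 3 (-0.571 to -0.321), so that the numbers mainly separate replicate 3 from 1 and 2. For LPS in CD18fl/fl BMDCs, libraries 1 and 2 (0.278) correlated more than both libraries 2 (0.265). The alternatives were RLE factors, library size scaling, no filter (at least 1 read), unique reads, DESeq2 1.42.0, the replicate block, a length offset (lowess, span 0.3) without and with the block, all 12 libraries in 1 fit and each library left out in turn. Replicates 1 and 2 only (without the block), and library size scaling and DESeq2 with the block, were chosen later, with values in view. The fits were tested on simulated counts.

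The members and gene lists were chosen with earlier results of these data known. Described were the 7 members, Itgb2, up to 6 list genes past the threshold with the largest change per comparison (otherwise the 4 largest), and the 3 genes most like each member (5 for Il6 and Tnf). Values of Lta, Ddx3y, Gm42450, Iah1, Cpa3, Kit, and of list genes given only with the block, were chosen after they were seen. The values of 1 list gene are not reported here.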

Additional observations from a re-analysis of the deposited data

How the results depend on the processing

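Of 661 values of single members under the alternatives, 555 kept direction and side of the threshold, 71 passed the threshold under the alternative alone, 5 no longer passed it and 30 changed direction. Counts of called genes and members moved most, in the order LPS in CD18fl/fl, LPS in CD18ΔCD11c, genotype unstimulated and genotype after LPS. From 496, 506, 0 and 0 genes, DESeq2 moved them to 1794, 1532, 538 and 150, the replicate block to 1627, 2560, 2606 and 1262, the block with a length offset to 1802, 2566, 1547 and 888, and a fit of all 12 libraries to 1068, 983, 19 and 45. Replicates 1 and 2 alone gave 6140, 2049, 1383 and 523, library size scaling with the block 1621, 2748, 4583 and 2642, and DESeq2 with the block 3131, 3377, 3036 and 1869. Without a filter 805 genes were called in the second and 1 in the fourth comparison, and the interaction gave 1 gene with DESeq2 and 130 with DESeq2 and the block. From 1, 1, 0 and 0 members, the replicate block moved the counts to 3, 4, 4 and 2, the block with a length offset to 3, 4, 2 and 2, replicates 1 and 2 alone to 6, 3, 3 and 1, library size scaling with the block to 3, 5, 5 and 3, and DESeq2 with the block to 5, 4, 4 and 3. Both LPS comparisons called 2 members without a filter, with DESeq2 and in the fit of all 12 libraries, and that in CD18ΔCD11c also with library size scaling and with unique reads. Without a filter, 691 of 18927 genes were called in CD18fl/fl and 805 of 19186 in CD18ΔCD11c BMDCs. The fit of all 12 libraries tested 13752 genes. In CD18ΔCD11c BMDCs, library size scaling called 186 higher and 300 lower of 12687 genes, and unique reads 284 and 235 of 12484. DESeq2 with the block tested 13789, 13978, 11506 and 10924 genes.
With 1 library left out, genes called were 0 to 3268, 0 to 1033, 0 and 0 to 1, and members called 0 to 3, 0 to 2, 0 and 0. LPS in CD18fl/fl had 0 genes without replicate 1 or 2 of either state and 3268 without LPS-treated replicate 3, and LPS in CD18ΔCD11c 0 without unstimulated replicate 1 and 1033 without LPS-treated replicate 3. The interaction called 0 genes and 0 members. Where leaving out a library turned a direction, the range was -0.23 to 0.08 for Tnfrsf1a with LPS in CD18fl/fl BMDCs. For the genotype it was -0.03 to 1.56 for Il6, -0.87 to 0.04 for Il6ra and -1.6 to 1.41 for Tnf in the unstimulated state, and -2.18 to 1.23 for Tnf after LPS. In the interaction it was -0.87 to 0.72 for Il6, -2.25 to 1.37 for Tnf, -0.37 to 0.12 for Tnfrsf1a, -0.2 to 0.97 for Tnfrsf1b and -0.2 to 0.48 for Adam17.
Il6 in unstimulated BMDCs was -0.07 between the genotypes with library size scaling. Its interaction was -1.17 with replicates 1 and 2 and -0.06 with DESeq2 and the block. The interaction of Tnfrsf1a was 0.01 with library size scaling, and that of Adam17 was -0.0036 with RLE factors, -0.0035 with DESeq2, -0.04 with a length offset and -0.03 with offset and block. Scaling to library size gave 76.7 CPM for Tnfrsf1a and 71.9 CPM for Adam17 in unstimulated CD18fl/fl BMDCs. The causes were not tested. Low read numbers limit Il6ra after LPS.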
